A study of Mus musculus with 11 samples.

Results

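The data on 9 mature miRNAs that mark red cell, endothelial, stromal, liver and myeloid RNA come from small RNA libraries of sorted mouse CD8+ T cells. They were chosen by name, as the rows of the deposited table whose miRNA equals mmu-miR-451a, mmu-miR-486a-5p, mmu-miR-486b-5p, mmu-miR-126a-3p, mmu-miR-126a-5p, mmu-miR-143-3p, mmu-miR-145a-5p, mmu-miR-122-5p or mmu-miR-223-3p (the mouse prefix is left out below). These are 9 of the 2128 rows of the table, and all 9 passed the filter on low counts that left 545 rows for testing. The cells came from spleens of mice labelled clean or dirty, and they were sorted as CD4- CD8+ CD49dlo GFP+ cells with high CD44 (stamped VM, virtual memory) or low CD44 (stamped TN, true naive). Virtual memory cells carry a memory phenotype without having met foreign antigen. There were 2 Clean_TN libraries (replicates 2 and 3) and 3 each of Clean_VM, Dirty_TN and Dirty_VM. The labels give no strain, age or treatment, define neither dirty nor stamped, and do not say whether replicates are separate animals, so p-values measure the spread between these libraries.

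These miRNAs are textbook markers of cells other than T cells. miR-451a and miR-486 accumulate in the red cell lineage, where the miR-451a hairpin is cut by Argonaute 2 without Dicer. miR-126, made from the Egfl7 gene, is the main endothelial miRNA and is also found in platelets and blood stem cells. miR-143 and miR-145 come from a single transcript of smooth muscle and fibroblasts, miR-122 is the dominant miRNA of hepatocytes, and miR-223 is that of neutrophils and other myeloid cells. In bulk RNA, fewer cells of a type and less RNA per cell cannot be told apart.

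Library totals ran from 2614396 to 16312004 estimated counts. Levels below are in CPM (counts relative to the TMM-scaled total of the library), and the floor of 3 counts that a count of 0 allows lay between 0.18 and 1.23 CPM, depending on the library. There were 5 shallow libraries, with totals from 2614396 to 4116012, and 6 deep ones, with totals from 9399645 upward, with 2 TN and 3 VM libraries among the shallow and 3 of each among the deep. Lymphocyte miRNAs were abundant in every library, with miR-150-5p between 66249 and 134281 CPM, miR-342-3p between 2087 and 5588 CPM and miR-142a-3p between 1388 and 1967 CPM.

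The mature sequences of the red cell, endothelial and myeloid markers show what the rows count. They are RefSeq sequences on GRCm38.p6, from a set that held 3 of the 9 members. Bases 2 to 8 (the seed that pairs with targets) are in capitals.
miR-451a: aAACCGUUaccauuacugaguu
miR-126a-3p: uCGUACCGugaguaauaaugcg
miR-223-3p: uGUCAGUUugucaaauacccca
No other of the 1679 mature miRNAs in that table carries any of these 3 seeds, so each row stands for its own seed. The mature miR-451a, at chr11:78073186-78073207 on the plus strand, runs from the stem into the loop of its hairpin. The whole hairpin, with the mature miRNA in capitals, shows this position, and the row has no 3p arm to set beside it.
Mir451a hairpin: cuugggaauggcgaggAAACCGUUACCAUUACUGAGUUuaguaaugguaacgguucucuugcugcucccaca
miR-126a-3p lies at chr2:26591402-26591423 on the plus strand, on the 3′ side of a hairpin with an ordinary pair of arms, here again with the mature arm in capitals.
Mir126a hairpin: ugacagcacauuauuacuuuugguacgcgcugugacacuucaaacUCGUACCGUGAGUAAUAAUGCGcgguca

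The positions of the hairpins follow the mm10 annotation (GENCODE M21), in which Mir451a, Mir144, Mir143 and Mir145a overlap no host gene. Mir451a (chr11:78073170-78073241) and Mir144 (chr11:78073005-78073070) lie 99 bases apart on the same strand, and Mir451b covers the same bases as Mir451a on the other strand. Mir126a (chr2:26591357-26591429) overlaps an annotated exon of Egfl7, and Mir126b lies opposite it over 58 bases. Mir486 (chr8:23142555-23142682) lies in an intron of Ank1, the erythrocyte ankyrin gene. The annotation has a hairpin named Mir3107 on the other strand, at chr8:23142573-23142662, whose 90 bases all fall within Mir486. Mir223 (chrX:96242817-96242926) overlaps an exon of the transcript F630028O10Rik. Mir122, Mir143 and Mir145a are on chromosome 18, Mir143 and Mir145a being 1301 bases apart.

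The liver marker was by far the most abundant of the group. miR-122-5p ranked 46 among the 545 tested rows by mean level, with a mean over the 4 groups of 1620 CPM, and it made up 84.7% to 89.3% of the group's counts in each library. miR-486b-5p (62.3 CPM), miR-143-3p (58.9 CPM), miR-486a-5p (55.7 CPM), miR-126a-3p (28.6 CPM) and miR-451a (16.9 CPM) formed a middle tier at ranks 157 to 231. miR-126a-5p (1.38 CPM), miR-223-3p (1.33 CPM) and miR-145a-5p (0.84 CPM) were near the floor at ranks 441 to 497. Neighbours within the middle tier and within the low tier overlapped in their ranges over libraries. Together the 9 rows held between 0.1% and 0.303% of a library's counts.

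**Figure D1:**
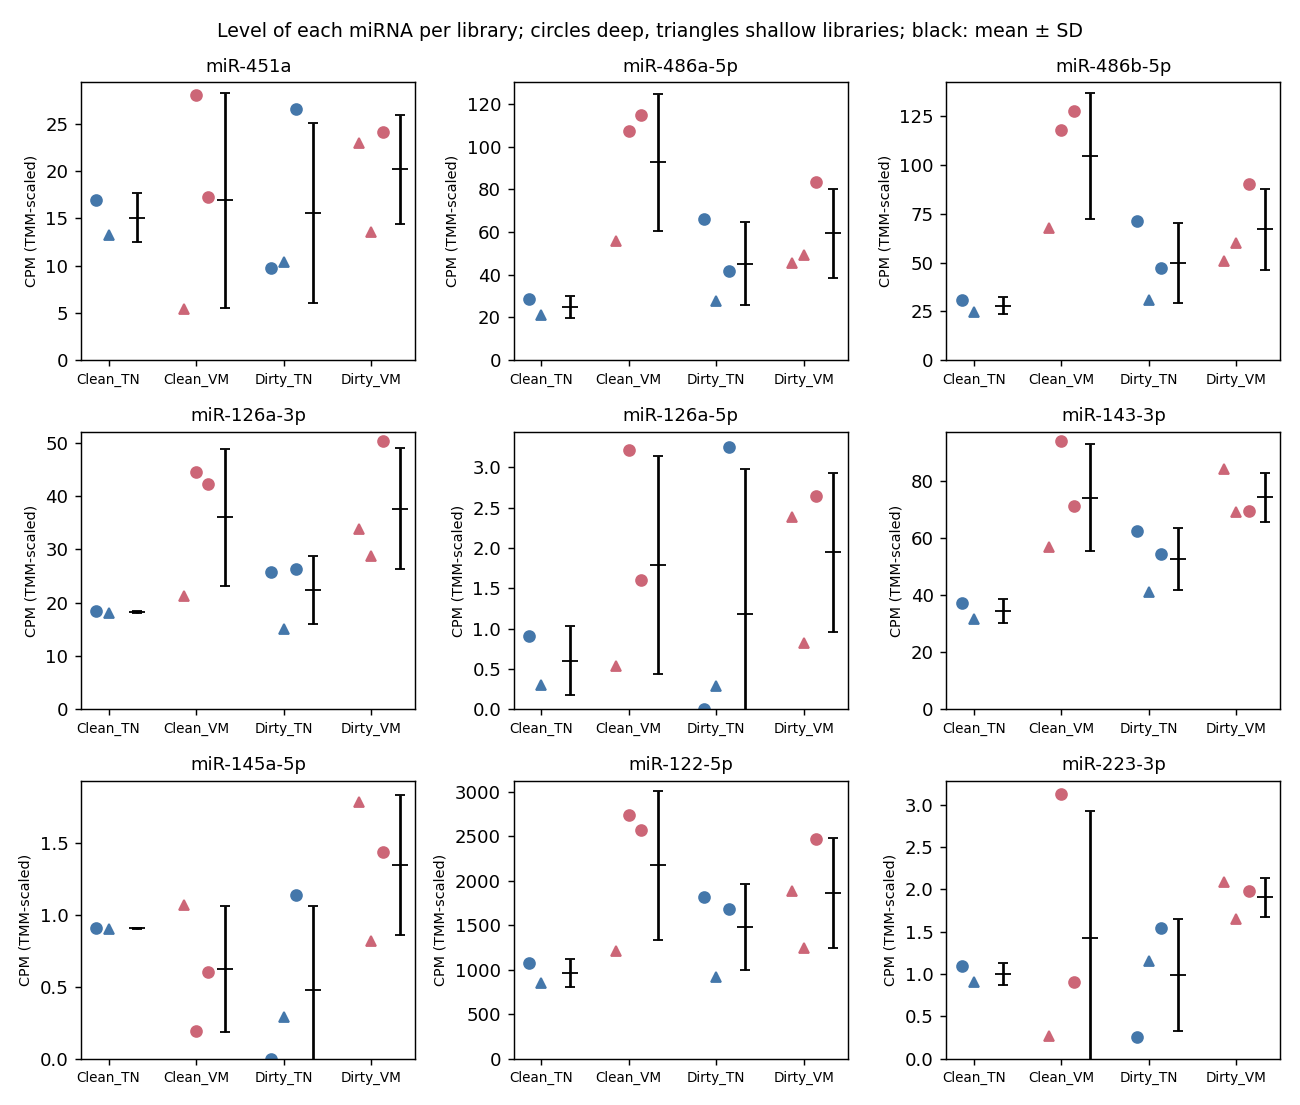
Level of each of the 9 miRNAs (CPM on TMM-scaled totals, linear axis from 0) in the 11 libraries by group, with circles for deep and triangles for shallow libraries, and the mean ± SD in black beside them; SD bars that would pass below 0 are cut there. miR-122-5p lies between 851 and 2738 CPM, and the lowest tier (miR-126a-5p, miR-145a-5p and miR-223-3p) stays at or below 3.25 CPM.

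The main question was whether these markers differ between virtual memory and naive cells. Averaged over clean and dirty mice, 5 of the 9 rows were higher in VM cells and none was lower: miR-486a-5p, miR-486b-5p, miR-126a-3p, miR-143-3p and miR-122-5p (edgeR quasi-likelihood test, adjusted p under 0.05). Of all 545 rows, 23.7% were called in this comparison, 11.4% higher in VM cells and 12.3% lower. The median log2 change was 0.80 over the 9 members and 0.09 over all tested rows. That contrast is a description only, because the members were chosen with earlier results of these data known. It also counts both miR-486 rows. Since the miR-486 rows share reads, as shown next, the 5 called rows stand for 4 miRNAs. In a fit with those rows summed 3 passed, and miR-122-5p did not (edgeR adjusted p = 0.0554). The count depended on single libraries. It was 1 without Clean_TN replicate 3, when miR-486b-5p alone passed, and 3 without Clean_TN replicate 2, Clean_VM replicate 2, Clean_VM replicate 3 or Dirty_VM replicate 3.

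**Figure D2:**
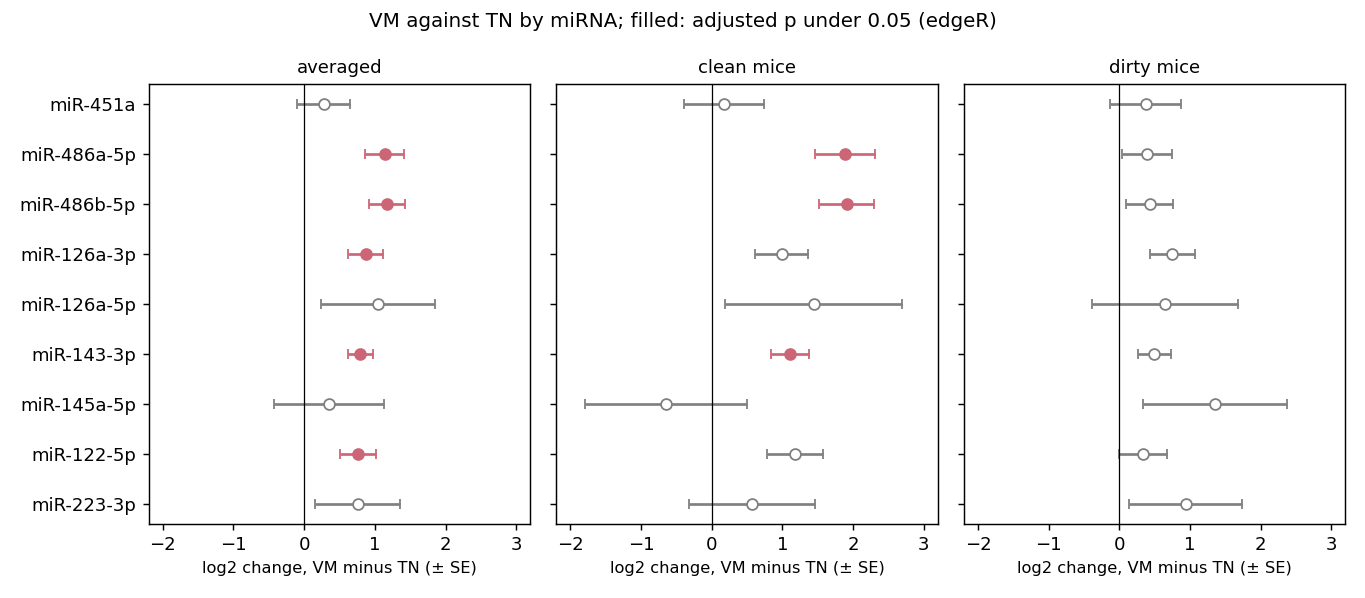
Log2 change of VM against TN cells (horizontal axis, ± SE) for each of the 9 miRNAs, averaged over environments, in clean mice and in dirty mice; filled points passed an adjusted p of 0.05 (edgeR). The averaged panel has 5 filled points, the clean panel 3 and the dirty panel 0.

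The rows of miR-486a-5p and miR-486b-5p were found to share reads. Their counts were 315 and 339 in Clean_TN replicate 2, 71 and 82 in Clean_TN replicate 3, and 208 and 252, 1104 and 1212, and 1145 and 1272 in Clean_VM replicates 1 to 3. In Dirty_TN replicates 1 to 3 they were 515 and 555, 95.5 and 107.5, and 517 and 578, and in Dirty_VM replicates 1 to 3 they were 153.5 and 170.5, 120.5 and 145.5, and 1391 and 1507. The miR-486b-5p row was the larger in each of the 11 libraries, by 7.62% to 21.2%. Both rows had the same fractional part in 11 of 11 libraries, with a remainder of 0.5 in 3 libraries in both and in no library in only 1 of them. A read split between rows leaves such fractions. The chi-square statistic for a constant ratio across libraries was 2.22 on 10 degrees of freedom, below the value near 10 that separately sampled reads would give on average. The 3p arms behaved likewise, with equal fractional parts in 11 of 11 libraries and a shared remainder in 7, although miR-486a-3p then held most of the counts (283.5 against 38.5 for miR-486b-3p in all). The pair of 5p rows is therefore described as 1 signal below.

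**Figure D3:**
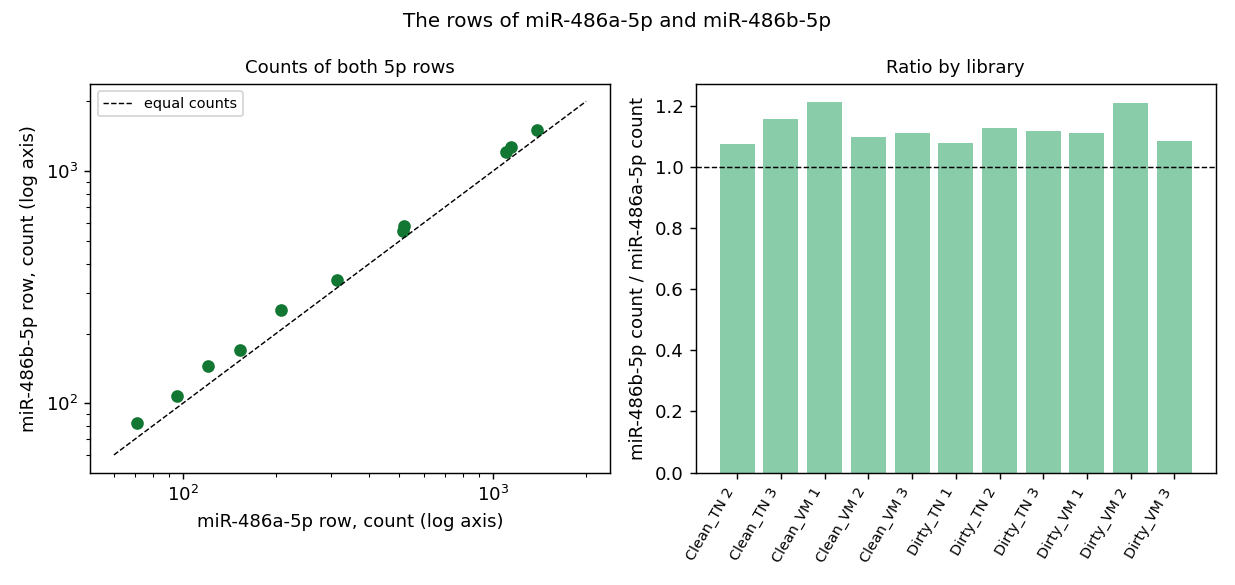
Left, estimated counts of the miR-486b-5p row against the miR-486a-5p row in the 11 libraries (both axes logarithmic), with a dashed line of equal counts. Right, the ratio of the counts by library, which runs from 1.08 to 1.21.

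Among the red cell markers, miR-486-5p was higher in VM cells. For miR-486a-5p the levels were 28.7 and 21.4 CPM in Clean_TN, and 55.8, 108 and 115 CPM in Clean_VM replicates 1 to 3. In dirty mice they were 66.2, 27.5 and 42.0 CPM in Dirty_TN and 45.7, 49.5 and 83.5 CPM in Dirty_VM. Clean_VM libraries all lay above Clean_TN, as in 28.4% of tested rows, and the dirty groups overlapped through the high Dirty_TN replicate 1. The averaged log2 change was 1.14 ± 0.27 (SE, edgeR adjusted p = 0.0090) for miR-486a-5p and 1.17 ± 0.25 (adjusted p = 0.00499) for miR-486b-5p. With both rows summed it was 1.15 (adjusted p = 0.0051). The call of miR-486a-5p was lost when Clean_TN replicate 3 was left out (log2 change 0.98, adjusted p = 0.0596).

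The difference in miR-486-5p was larger in clean than in dirty mice by its point estimates. In clean mice miR-486a-5p had a log2 change of 1.88 ± 0.43 (SE, edgeR adjusted p = 0.00985) and a mean of 92.8 ± 32.2 CPM (SD, n = 3) in VM against 25.03 ± 5.16 (n = 2) in TN cells. In dirty mice the means were 59.6 ± 20.8 CPM (n = 3) and 45.2 ± 19.5 (n = 3), and the log2 change of 0.40 ± 0.35 missed the threshold (edgeR adjusted p = 0.535). The test of the difference between environments did not pass, with an interaction of -1.49 ± 0.54 (edgeR adjusted p = 0.21). It passed by DESeq2 (adjusted p = 0.0408) and with no filter on low counts (adjusted p = 0.0135). Without Clean_TN replicate 2 or 3 the clean call of miR-486a-5p was also lost (adjusted p = 0.0625 and 0.121).

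miR-451a, the red cell marker with no partner arm, was not called between VM and TN cells, and its difference from miR-486-5p was not tested. Its levels were 16.9 and 13.3 CPM in Clean_TN and 5.37, 28.0 and 17.3 CPM in Clean_VM replicates 1 to 3. They were 9.7, 10.4 and 26.5 CPM in Dirty_TN and 22.9, 13.6 and 24.1 CPM in Dirty_VM. Groups overlapped in both environments, and the lowest and the highest library were both Clean_VM, with exact 95% Poisson intervals of 3.28 to 8.29 and 24.9 to 31.5 CPM. The averaged log2 change was 0.27 ± 0.38 (SE, edgeR adjusted p = 0.638), with 0.18 ± 0.57 in clean and 0.37 ± 0.51 in dirty mice. Across 11 libraries miR-451a and miR-486a-5p had a Pearson's r of 0.26 (permutation p = 0.439, adjusted over 6 pairs 0.527) and a Spearman's rho of 0.30 (permutation p = 0.371, adjusted 0.445). Without Clean_VM replicate 1 and Dirty_TN replicate 1 r was 0.58, and among the 6 deep libraries it was 0.13. With group means removed r was 0.48. The ratio of miR-486a-5p to miR-451a counts ranged from 1.58 in Dirty_TN replicate 3 to 10.4 in Clean_VM replicate 1. It was 1.7 and 1.61 in Clean_TN and 10.4, 3.84 and 6.66 in Clean_VM, which did not overlap. In dirty mice the ratio overlapped between subsets, at 6.82, 2.65 and 1.58 in Dirty_TN and 1.99, 3.65 and 3.47 in Dirty_VM.

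The passenger arm of miR-486 separated the subsets more widely than the 5p arm. miR-486a-3p stood at 1.0 and 1.2 CPM in Clean_TN, 6.31, 4.63 and 6.97 CPM in Clean_VM, 1.16, 1.44 and 0.772 CPM in Dirty_TN and 2.23, 3.9 and 5.26 CPM in Dirty_VM. All 6 VM libraries lay above all 5 TN libraries, as in 6.06% of tested rows, while in 7.34% all VM libraries lay below. Its log2 change was 2.16 ± 0.34 (SE, edgeR adjusted p = 6.2e-04) averaged, 2.46 ± 0.52 (adjusted p = 0.00683) in clean and 1.86 ± 0.44 (adjusted p = 0.0145) in dirty mice. Its counts were 4 to 11 per TN library. The clean call was lost without Clean_TN replicate 2 or 3 (adjusted p = 0.107 and 0.0608), and the dirty call without Dirty_VM replicate 3 (adjusted p = 0.0822) or with a replicate block within environment (log2 change 1.82, adjusted p = 0.0579).

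The other red cell miRNAs of the list were mixed. Of 10 listed, 7 were tested, 4 rose in VM cells on average and none fell: both miR-486 5p rows, which count as 1 signal, miR-486a-3p and miR-16-1-3p. Of all tested rows 11.4% were called higher. miR-16-1-3p, a passenger arm of the widely expressed miR-15/16 cluster rather than a red cell product alone, rose by 0.97 ± 0.20 (SE, edgeR adjusted p = 0.00375). miR-144-5p, from the hairpin next to miR-451a, had at most 21 counts in a library, and its level differed by 1.66 ± 0.76 on the log2 scale (SE, edgeR adjusted p = 0.14). miR-144-3p had 15 counts over 5 libraries, and miR-451b, on the strand opposite miR-451a, was at 0 in all 11. The summed level of the list was 328 to 353 CPM in TN and 408 to 549 CPM in VM libraries. Its largest single member, miR-363-3p, stood at 175 to 289 CPM with a log2 change of 0.17 ± 0.13 (SE, edgeR adjusted p = 0.39).

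The endothelial marker miR-126a-3p was higher in VM cells when averaged over environments. It stood at 18.4 and 18.1 CPM in Clean_TN, at 21.2, 44.5 and 42.3 CPM in Clean_VM, at 25.8, 15.0 and 26.4 CPM in Dirty_TN and at 33.9, 28.8 and 50.3 CPM in Dirty_VM. VM libraries lay above TN libraries within each environment, as they did for 7.71% of tested rows. The averaged log2 change was 0.87 ± 0.24 (SE, edgeR adjusted p = 0.0208), a 1.83-fold difference. Within an environment it did not pass, with 0.99 ± 0.37 (adjusted p = 0.0856) in clean and 0.75 ± 0.32 (adjusted p = 0.169) in dirty mice, and the interaction was -0.24 ± 0.48 (adjusted p = 0.892). The averaged call was lost without Clean_TN replicate 2 or 3, Clean_VM replicate 2 or 3 or Dirty_VM replicate 3, with adjusted p-values from 0.0819 to 0.109.

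Its partner arm miR-126a-5p was sparse, with 0 to 44 counts in a library. Levels were 0.911 and 0.301 CPM in Clean_TN, 0.537, 3.22 and 1.6 CPM in Clean_VM, 0, 0.288 and 3.25 CPM in Dirty_TN and 2.38, 0.822 and 2.64 CPM in Dirty_VM. The count of 0 in Dirty_TN replicate 1 allows a level of up to 0.386 CPM, and groups overlapped throughout. The log2 change was 1.04 ± 0.81 (SE, edgeR adjusted p = 0.38) averaged, and 2.78 (adjusted p = 0.0224) without Dirty_TN replicate 3, its highest library. Over all libraries the 3p arm had 18 times the counts of the 5p arm. The arms rose and fell together across the 11 libraries (Pearson's r = 0.70, permutation p = 0.0195, adjusted p = 0.039; Spearman's rho = 0.71, permutation p = 0.0179, adjusted p = 0.0358), with r = 0.61 without Dirty_TN replicate 2 and Dirty_VM replicate 3, and 0.52 among the 6 deep libraries. The opposite-strand miR-126b arms held 7 and 2 counts in all.

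The stromal marker miR-143-3p had the narrowest error of the group. It stood at 37.4 and 31.6 CPM in Clean_TN, at 56.9, 94.1 and 71.3 CPM in Clean_VM, at 62.5, 41.0 and 54.5 CPM in Dirty_TN and at 84.2, 69.0 and 69.5 CPM in Dirty_VM. VM libraries lay above TN libraries in clean and in dirty mice, as in 7.71% of tested rows. The averaged log2 change was 0.80 ± 0.18 (SE, edgeR adjusted p = 0.00577), with 1.10 ± 0.27 (adjusted p = 0.0146) in clean and 0.49 ± 0.23 (adjusted p = 0.202) in dirty mice. The interaction was -0.61 ± 0.35 (edgeR adjusted p = 0.379). When Clean_TN replicate 3 was left out, the averaged change was 0.67 (adjusted p = 0.0618), and the clean call was lost without either Clean_TN library or without Clean_VM replicate 2 or 3, with adjusted p-values from 0.0687 to 0.211. Scaling to library totals also ended the clean call (log2 change 0.88, edgeR adjusted p = 0.0577).

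miR-145a-5p, transcribed with miR-143 in smooth muscle, was too sparse to show whether the pair moved together. It had 0 to 24 counts per library, at 0.911 and 0.904 CPM in Clean_TN, 1.07, 0.195 and 0.602 CPM in Clean_VM, 0, 0.288 and 1.14 CPM in Dirty_TN and 1.79, 0.822 and 1.44 CPM in Dirty_VM. Its averaged log2 change was 0.35 ± 0.78 (SE, edgeR adjusted p = 0.763), with -0.65 ± 1.15 in clean and 1.36 ± 1.02 in dirty mice. miR-143-3p had 73.8 times as many counts in all, and the pair had a Pearson's r of -0.03 across 11 libraries (permutation p = 0.929, adjusted 0.929; Spearman's rho -0.02, permutation p = 0.967, adjusted 0.967). Without Clean_TN replicates 2 and 3 r was 0.13, and among the 6 deep libraries it was -0.38, with few counts behind each point. The 3p arm of miR-145a, usually the minor product, held 217 counts against 72 for the 5p arm.

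Of 13 stromal miRNAs listed, 8 were tested and 1 rose, miR-143-3p, where 11.4% of all tested rows were called higher. miR-199a-3p, a fibroblast miRNA whose reads are split over several rows, had 8.48 to 41.7 CPM over its summed rows and a log2 change of 0.26 ± 0.37 (SE, edgeR adjusted p = 0.641) on its row of mir-199a-1. miR-214-3p, another fibroblast miRNA, had 0.268 to 3.25 CPM (-0.27 ± 0.54, adjusted p = 0.751), and miR-145b and miR-214-5p were at 0 in all libraries. miR-10b-5p, also on the list and more abundant than these, had 19.3 to 64.9 CPM and a log2 change of 0.45 ± 0.27 (SE, edgeR adjusted p = 0.27). The summed stromal list, which includes it, reached 84.5 to 148 CPM in TN and 110 to 205 CPM in VM libraries, ranges that overlapped.

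miR-122-5p, the hepatocyte miRNA that supports cholesterol metabolism, was higher in VM cells on average, close to the threshold. It stood at 1071 and 851 CPM in Clean_TN, at 1215, 2738 and 2575 CPM in Clean_VM, at 1822, 922 and 1688 CPM in Dirty_TN and at 1881, 1239 and 2473 CPM in Dirty_VM. Clean_VM libraries lay above Clean_TN, as in 28.4% of tested rows, and the dirty groups overlapped. The averaged log2 change was 0.76 ± 0.26 (SE, edgeR adjusted p = 0.0482), with 1.18 ± 0.39 (adjusted p = 0.0568) in clean, 0.34 ± 0.34 (adjusted p = 0.595) in dirty mice and an interaction of -0.84 ± 0.51 (adjusted p = 0.402). The averaged call held under 8 of 22 alternatives, over which the change ran from 0.57 to 0.91 and the adjusted p from 0.00161 to 0.239. It was lost without any library other than Clean_VM replicate 1 or Dirty_VM replicate 2. Relative to miR-150-5p, the leading lymphocyte miRNA, miR-122-5p counts were 0.633% to 3.26%.

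The other liver-list miRNAs did not rise with it. miR-122-3p had 1 count in all 11 libraries, against 161540 for the 5p arm. miR-192-5p and miR-194-5p, which gut and liver share, stood at 630 to 1157 and 225 to 360 CPM. miR-192-5p had a median of 844 CPM in TN and 677 CPM in VM libraries, a log2 change of -0.35 ± 0.14 (SE, edgeR adjusted p = 0.108). It passed as lower by DESeq2 (adjusted p = 0.0432) and, in edgeR, under scaling to library totals (adjusted p = 0.0234). Of 4 hepatocyte miRNAs 3 were tested, 1 rose, miR-122-5p itself, and none fell. Among all tested rows 11.4% were called higher and 12.3% lower.

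The myeloid marker miR-223-3p was close to the floor, with 1 to 33 counts per library. Levels were 1.09 and 0.904 CPM in Clean_TN, 0.268, 3.12 and 0.903 CPM in Clean_VM, 0.257, 1.15 and 1.54 CPM in Dirty_TN and 2.08, 1.64 and 1.98 CPM in Dirty_VM. The exact 95% Poisson interval was 0.00679 to 1.5 CPM in Clean_VM replicate 1 and 2.13 to 4.4 CPM in Clean_VM replicate 2, so those libraries differed by more than counting error. Dirty_VM libraries lay above Dirty_TN, as in 17.1% of tested rows, and the clean groups overlapped. The averaged log2 change was 0.76 ± 0.60 (SE, edgeR adjusted p = 0.39). The summed myeloid list, with miR-223-5p and miR-147-3p, stayed at or below 4.39 CPM in every library, and neither of its tested members passed. miR-147-3p, the other of them, had 1 to 26 counts per library and lay lower in VM cells by its estimate, at -1.38 ± 0.57 on the log2 scale (SE, edgeR adjusted p = 0.105).

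For scale, lists of other cell types were read the same way. Averaged over environments, 11.4% of all tested rows were called higher in VM cells and 12.3% lower. Of 4 endothelial and platelet miRNAs 2 were tested and 1 rose, miR-126a-3p, and the summed list ran from 15.3 to 29.8 CPM in TN and from 21.7 to 53.0 CPM in VM libraries. Of 5 muscle miRNAs 3 were tested and none passed, with summed levels of 12.4 to 37.6 CPM and miR-208a-3p, the heart muscle marker, at 0 in every library. Of 5 lymphocyte miRNAs none rose and 2 fell in VM cells. These were miR-181a-5p, which tunes T cell receptor signalling, at -1.69 ± 0.15 on the log2 scale (SE, edgeR adjusted p = 4.66e-06) and miR-142a-5p, found across blood cells, at -0.90 ± 0.23 (adjusted p = 0.0128).

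In clean mice alone 3 of the 9 rows were higher in VM cells, miR-486a-5p, miR-486b-5p and miR-143-3p, where 9.72% of all rows were called higher, 7.71% lower and 17.4% in either direction. Without Clean_TN replicate 3 none of them passed, without Clean_TN replicate 2 only miR-486b-5p did, and without Clean_VM replicate 1 also miR-126a-3p and miR-122-5p passed, for 5 in all. By DESeq2 and with no filter the count was also 5. In dirty mice none of the 9 passed by edgeR, DESeq2 or limma-voom, against 6.24% of all rows called higher, 5.87% lower and 12.1% in either direction by edgeR. Unadjusted, miR-126a-3p alone had an edgeR p under 0.05 there, and all 9 log2 changes lay above 0, as did 277 of all 545.

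Dirty mice were then set against clean mice within each subset. None of the 9 rows passed in TN or in VM cells, and neither did any of the 545 rows by edgeR (0% called in either direction). DESeq2 called none of the 9 either. In TN cells 2 of the 9 had an unadjusted edgeR p under 0.05, as had 38 of the 545 rows. These were miR-143-3p, at 0.61 ± 0.26 on the log2 scale (SE, edgeR adjusted p = 0.559), and miR-486b-5p, at 0.84 ± 0.38 (adjusted p = 0.559). For both, all Dirty_TN libraries lay above Clean_TN, as for 14.3% of rows (8.99% had Dirty_TN below). The miR-486a-5p row of the same signal had 0.85 ± 0.41 (SE, edgeR unadjusted p = 0.0574, adjusted p = 0.559), and its libraries overlapped, with 27.5 CPM in Dirty_TN replicate 2 and 28.7 CPM in Clean_TN replicate 2. In VM cells no member had an unadjusted p under 0.05, and miR-486a-5p had -0.63 ± 0.35 (edgeR adjusted p = 0.424). These comparisons share their libraries with those of VM against TN cells. In the interaction none of the 9, or of all 545, passed by edgeR (0% called), while DESeq2 called both miR-486 rows, and 2 of the 9 and 93 of all rows had an unadjusted p under 0.05.

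Library depth moved with most of these levels. Deep libraries stood above shallow ones by 0.91 on the log2 scale for miR-486a-5p, 0.81 for miR-122-5p, 0.68 for miR-451a, 0.60 for miR-126a-3p and 0.32 for miR-143-3p, as the mean over TN and VM cells. The difference was also above 0 for miR-486b-5p (0.83), miR-126a-5p (0.84) and miR-223-3p (0.17), and it was -0.28 for miR-145a-5p. The median over all tested rows was 0.01. miR-122-5p ran from 851 to 922 CPM in shallow TN and from 1215 to 1881 CPM in shallow VM libraries. In the deep libraries it ran from 1071 to 1822 CPM in TN and from 2473 to 2738 CPM in VM cells, so the subsets did not overlap within either depth class. The same held for miR-486a-5p, miR-486b-5p, miR-126a-3p and miR-143-3p, that is 5 of the 9 rows, where 8.44% of all rows did so with VM higher. The deep libraries were Clean_TN replicate 2, Dirty_TN replicates 1 and 3, Clean_VM replicates 2 and 3 and Dirty_VM replicate 3. Clean and dirty mice were thus spread unevenly over the subsets within a class. Comparisons of subsets within a class also carry part of any difference between environments.

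Within depth classes the differences between VM and TN cells kept their direction. For miR-122-5p the log2 difference was 0.68 among shallow and 0.80 among deep libraries, for miR-486a-5p 1.03 and 1.22, for miR-126a-3p 0.72 and 0.96, and for miR-143-3p 0.93 and 0.62. For miR-451a it was 0.03 and 0.46, with overlapping subsets in both classes. With depth class as a term in the edgeR fit, the averaged log2 change of miR-122-5p was 0.79 (adjusted p = 0.00236), that of miR-126a-3p 0.90 (adjusted p = 0.00162), that of miR-143-3p 0.83 (adjusted p = 0.00211) and that of miR-486a-5p 1.19 (adjusted p = 1.5e-04). In dirty mice alone miR-126a-3p then passed as well (0.98, adjusted p = 0.0129). The part of depth in these results was not tested further.

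**Figure D4:**
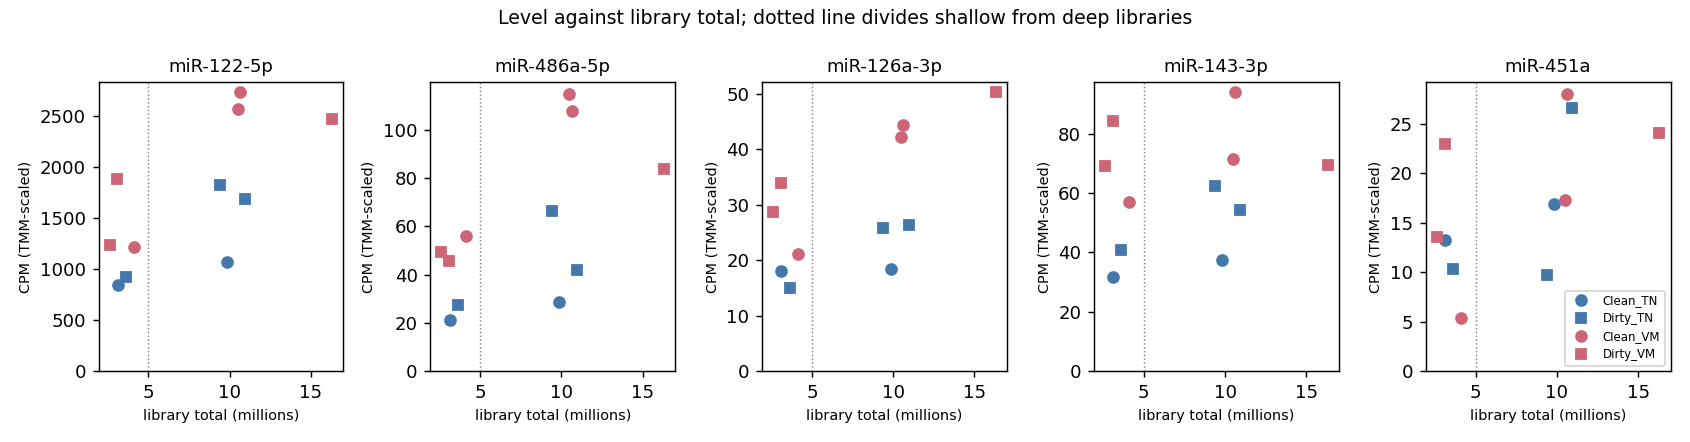
Level (CPM on TMM-scaled totals, vertical axis from 0) of 5 miRNAs against the library total, with blue for TN and red for VM cells, circles for clean and squares for dirty mice; the dotted line divides shallow from deep libraries. For miR-122-5p, miR-486a-5p, miR-126a-3p and miR-143-3p the VM points lie above the TN points on each side of the line.

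Markers of different tissues varied together from library to library. miR-126a-3p correlated with miR-486a-5p (Pearson's r = 0.87, permutation p = 7.9e-04, adjusted over 6 pairs p = 0.00342; Spearman's rho = 0.81, permutation p = 0.00372, adjusted p = 0.0112). It also correlated with miR-143-3p (r = 0.85, permutation p = 0.00114, adjusted p = 0.00342; rho = 0.88, permutation p = 7.1e-04, adjusted p = 0.00426). Without Dirty_TN replicate 2 and Dirty_VM replicate 3 these r were 0.86 and 0.89, and among the 6 deep libraries 0.90 and 0.87. With group means removed they were 0.89 and 0.69. miR-451a with miR-122-5p gave r = 0.57 (permutation p = 0.0644, adjusted p = 0.0966) and rho = 0.65 (permutation p = 0.0368, adjusted p = 0.0553), and r = 0.79 without Clean_VM replicate 1 and Dirty_TN replicate 1. Among the deep libraries that r was 0.32, and with group means removed 0.76. Under scaling to library totals the pair passed (r = 0.65, permutation test, adjusted p = 0.0464).

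A search over all 545 rows for the most similar profile, by Pearson's r of log2 levels over 11 libraries, is given as a description. For miR-122-5p the nearest rows were miR-126a-3p (r = 0.94), miR-486a-5p (0.91) and miR-409-3p (0.91). For miR-126a-3p they were miR-122-5p and then both miR-486 5p rows (0.87 and 0.86), and for miR-486a-5p they were miR-122-5p, miR-409-3p (0.91) and miR-704 (0.91). miR-143-3p was nearest to miR-7683-5p (0.88), miR-10a-5p (0.88) and miR-122-5p (0.85). miR-451a was nearest to other rows, namely both rows of miR-125b-5p (0.89) and the muscle miRNA miR-133a-3p (0.88), none of which is a red cell marker. The libraries share group and depth differences, which such an r includes.

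**Figure D5:**
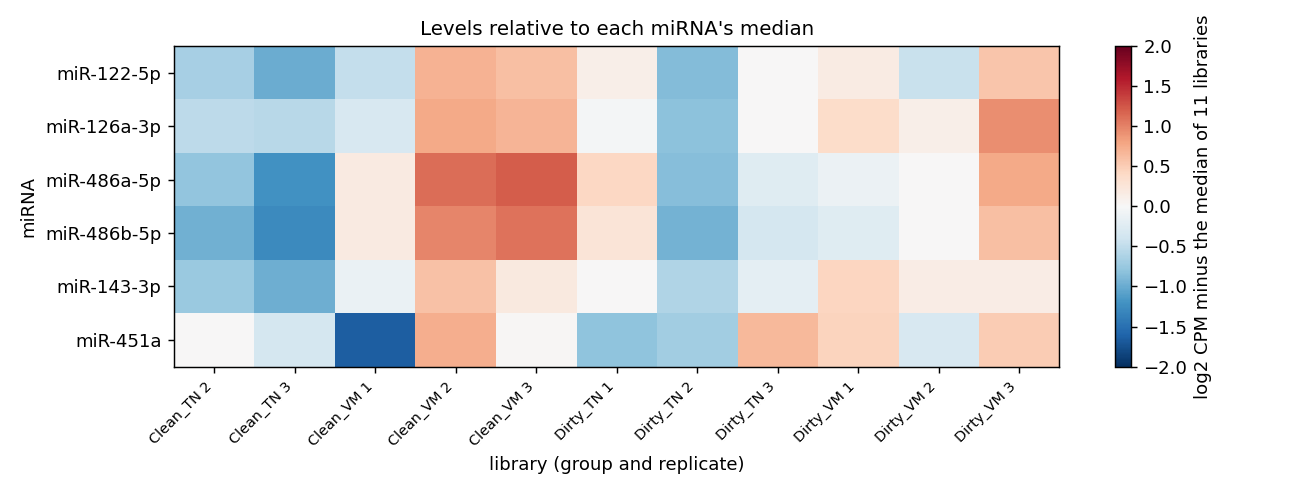
Log2 CPM of 6 miRNAs in each of the 11 libraries relative to that miRNA's median, with red above and blue below it. Clean_TN replicate 3 and Dirty_TN replicate 2 are low in every row; miR-451a departs most in Clean_VM replicate 1, at -1.65.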

How the data were processed

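The authors deposited 1 table of expected counts, that is estimated counts per mature miRNA and hairpin, with 1 column per library. Of its values 88.7% were whole, and no scaling between libraries was found. Reads are on build mm10 per the submitters' processing notes. Aligner, counter and annotation: not given in the sources used here. Members and lists were chosen with earlier results of these data known.

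Rows with identical names and values were kept once (120 of 2128 removed). Counts were rounded, filtered with filterByExpr (545 rows of 524 miRNAs) and fitted over all 11 libraries in edgeR 4.0.16 (R 4.3.3) with TMM scaling and robust quasi-likelihood. Benjamini-Hochberg adjustment of the two-sided p-values ran over all 545 rows (threshold 0.05). A standard error is the absolute log2 change over the square root of F. The test was checked on simulated counts. List levels sum all rows of a name. Correlations used log2(CPM + 0.5) and 100000 permutations. Intervals and floors cover counting error only. All 9 members were described, with tested miRNAs of fixed lists for red cells, endothelium, stroma, liver, muscle, myeloid cells and lymphocytes. Alternatives included DESeq2 1.42.0, limma-voom (limma 3.58.1), other scalings, filters, row sums, blocks, a depth term and leaving out each library. When 1 Clean_TN library is left, it is assumed to vary like the other groups.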

Additional observations from a re-analysis of the deposited data

How the results depend on the processing

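Each comparison was refitted under 22 or 23 alternatives where the miRNA could be tested; miR-145a-5p fell under the filter in some. Of the counts of members called, pooled over all comparisons, 117 stayed within 1.5 times the value reported or stayed at 0, and 17 did not. In dirty mice, in dirty against clean cells of either subset and in the interaction the value reported was 0, and staying meant a count of 0. The pooled tally therefore says little about how stable the averaged and clean counts were. Averaged over environments, the count of 5 became 3 with the miR-486 rows summed, and 1 to 5 when a library was left out. In clean mice the count of 3 became 5 by DESeq2, 5 with no filter, 5 with a replicate block within environment and 5 with depth class as a term, and 0 to 5 when a library was left out. In dirty mice the count of 0 became 1 with depth class as a term, and 0 to 1 when a library was left out. For the interaction the count of 0 became 2 by DESeq2 and 2 with no filter. The cause was not tested. With the replicate number as a block 4 members passed averaged over environments, 3 in clean and 0 in dirty mice. Deviations of same-numbered libraries from their group means correlated at 0.25 and -0.26 in clean and at -0.46, 0.24 and 0.42 in dirty mice. The sign went with depth, positive for pairs of like depth and negative for pairs of unlike depth. These values therefore cannot tell whether equal numbers pair the samples.

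The changes whose direction reversed had not passed in the reported fit. miR-451a in clean mice (0.18) became -0.031 under library totals and -0.077 with the depth term. Between dirty and clean TN cells miR-451a (0.05) became -0.010 by DESeq2, -0.047 by limma-voom, -0.0080 with DESeq2 size factors, -0.047 under library totals, -0.033 with rows summed per name, -0.12 with the depth term and -0.011 with only the groups compared. There miR-126a-5p (0.93) became -0.30 by limma-voom and miR-223-3p (-0.034) became 0.32 with the replicate block by number. Between dirty and clean VM cells miR-126a-3p (0.07) became -0.0012 by DESeq2, -0.0028 with DESeq2 size factors, -0.020 with no filter and -0.076 with the miR-486 rows summed, and miR-126a-5p (0.13) became -0.016 with those rows summed. There miR-143-3p (-0.00034) became 0.011 by limma-voom, 0.11 under library totals, 0.043 with rows summed per name and 0.12 with the depth term, and miR-122-5p (-0.22) became 0.086 with the depth term. In the interaction miR-451a (0.19) became -0.090 with the replicate block within environment, miR-126a-3p (-0.24) became 0.038 under library totals and 0.16 with the depth term, and miR-126a-5p (-0.80) became 0.60 by limma-voom. The correlation of miR-143-3p with miR-145a-5p became 0.048 with a pseudocount of 5 and 0.16 under library totals.

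Leaving out a library reversed further changes. For VM against TN, miR-451a ran from -0.11 to 0.58 averaged and from -0.53 to 0.62 in clean mice, miR-145a-5p from -0.033 to 0.42 averaged, miR-223-3p from -0.78 to 1.01 in clean mice and miR-126a-5p from -0.0090 to 4.23 in dirty mice. For dirty against clean TN cells, miR-451a ran from -0.81 to 0.22, miR-126a-3p from -0.049 to 0.43, miR-126a-5p from -2.80 to 2.00 and miR-223-3p from -0.91 to 0.34. In VM cells the ranges were -0.33 to 0.85 for miR-451a, -0.38 to 0.29 for miR-126a-3p, -0.41 to 0.87 for miR-126a-5p, -0.33 to 0.27 for miR-143-3p, -0.69 to 0.018 for miR-122-5p and -0.23 to 1.59 for miR-223-3p. In the interaction they were -0.33 to 1.02 for miR-451a, -0.61 to 0.073 for miR-126a-3p, -1.85 to 2.89 for miR-126a-5p and -0.16 to 1.65 for miR-223-3p. Library totals in place of TMM moved the median log2 change of all rows from 0.08 to -0.13 in clean mice and from -0.05 to 0.24 in the interaction. Few counts limit miR-126a-5p, miR-145a-5p and miR-223-3p.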
